A study of Mus musculus with 3 samples.

Results

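Myeloid barcodes carrying Lyz2 and Tyrobp made up 71 of the 4513 barcodes that passed the quality limits, of 5486 deposited. They were selected on measured counts. A barcode needed at least 200 genes, at most 10% of its unique molecular identifiers (UMIs) from mitochondrial genes, at least 1 UMI each of Lyz2 and Tyrobp, and 0 UMIs of the lymphocyte genes Cd79a, Cd79b, Trac and Cd3d. The levels of these 6 genes in the 71 barcodes are therefore descriptions and were not tested. The cells came from lymph nodes of C57BL/6 mice of the genotype CXCL13-TdTomato+, in which TdTomato marks cells with an active Cxcl13 promoter, pooled over animals, and per the labels were sorted as live, Podoplanin+, CD31-, CD45- and TdTomato+. Both 2-IC libraries (replicates 1 and 2) came from mice given 2 antigen immune complexes, 7 days and 24 hours before analysis, and the 1-IC library from mice given 1 antigen immune complex 24 hours before. The short labels of the 2-IC libraries conflict with each other, so that they were grouped by their titles. CD45 is the product of Ptprc, so by these labels myeloid cells were outside the intended gate.

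Lyz2 encodes lysozyme, an enzyme that breaks bacterial cell walls, and is abundant in macrophages, monocytes and neutrophils. Tyrobp (DAP12) and Fcer1g (the common Fc receptor gamma chain) are membrane adaptors whose ITAM motifs pass signals from activating receptors to the kinase Syk. In lymph nodes, macrophages line the sinuses and capture immune complexes, and dendritic cells carry antigen to T cells on class II molecules, whose chains include H2-Aa and whose chaperone is Cd74. Follicular stromal cells secrete CXCL13, the chemokine that draws B cells into follicles, and reticular cells make collagens such as Col1a2.

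The sequences upstream of genes that mark these barcodes are shown because the genes were measured together in the same few cells. They are from RefSeq on GRCm38.p6, read 5′ to 3′ on the minus strand, and end before the annotated gene body. Capitals mark AGGAAGT or its reverse complement ACTTCCT, a form of the site bound by the myeloid factor PU.1 (Spi1), and in H2-Aa the CCAAT box or its reverse complement ATTGG. The Lyz2 sequence is chr10:117282322-117282522, the C1qb sequence chr4:136886201-136886450, the C1qc sequence chr4:136893066-136893164, the Fcer1g sequence chr1:171234366-171234599 and the H2-Aa sequence chr17:34287824-34288073.
Lyz2: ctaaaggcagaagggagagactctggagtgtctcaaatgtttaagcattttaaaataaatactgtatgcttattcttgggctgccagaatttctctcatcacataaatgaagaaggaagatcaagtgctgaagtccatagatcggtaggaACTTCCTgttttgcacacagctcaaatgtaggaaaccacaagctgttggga
C1qb: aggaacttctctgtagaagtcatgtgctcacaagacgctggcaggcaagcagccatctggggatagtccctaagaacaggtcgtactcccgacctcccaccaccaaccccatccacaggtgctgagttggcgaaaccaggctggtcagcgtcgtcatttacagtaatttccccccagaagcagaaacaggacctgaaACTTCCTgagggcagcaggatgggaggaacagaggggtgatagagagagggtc
C1qc: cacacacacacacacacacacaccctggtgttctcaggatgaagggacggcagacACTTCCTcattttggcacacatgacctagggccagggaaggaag
Fcer1g: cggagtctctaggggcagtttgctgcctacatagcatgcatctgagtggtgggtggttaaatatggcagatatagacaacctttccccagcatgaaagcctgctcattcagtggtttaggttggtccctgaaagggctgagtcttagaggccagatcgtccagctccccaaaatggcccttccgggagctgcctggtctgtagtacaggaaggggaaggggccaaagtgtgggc
H2-Aa: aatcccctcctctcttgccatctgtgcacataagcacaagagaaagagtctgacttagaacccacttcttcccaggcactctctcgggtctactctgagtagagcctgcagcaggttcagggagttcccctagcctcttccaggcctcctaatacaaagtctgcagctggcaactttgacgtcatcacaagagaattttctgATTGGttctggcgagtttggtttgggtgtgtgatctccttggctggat
AGGAAGT on either strand was found in the 250 bases before the start of 7.69% of all 32851 listed promoters and CCAAT in 33.8%. The AGGAAGT match began 100 bases before the RefSeq start in Lyz2, 53 in C1qb and 195 in C1qc, and the Fcer1g sequence held no match. Of the 604 listed promoters of genes higher in the myeloid barcodes than in the gate-negative barcodes described below, 101 (16.7%) held AGGAAGT, against 7.39% of the 8414 listed promoters of all genes tested and 4.92% of the 427 of genes that were lower. CCAAT was in 33.1% of the promoters of genes that were higher, 36.1% of all tested and 37.7% of those that were lower. These shares were not tested, and a match is not evidence of binding.

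The share of myeloid barcodes was 46 of 3133 (1.47%, exact Clopper-Pearson 95% interval 1.08 to 1.95) in 2-IC replicate 1. It was 12 of 756 (1.59%, 0.823 to 2.76) in 2-IC replicate 2 and 13 of 624 (2.08%, 1.11 to 3.54) in the 1-IC library. The intervals overlap and cover counting error only. With 1 library of the 1-IC condition, no test between conditions was run. Before the quality limits 89 barcodes met the gene rule. A further 50 barcodes held both Lyz2 and Tyrobp together with a lymphocyte gene and were not members, 410 held Lyz2 without Tyrobp and 251 Tyrobp without Lyz2.

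Depth and library overlap differed between the libraries. The myeloid barcodes had a median of 5665 UMIs in 2-IC replicate 1, 18982 in replicate 2 and 1744 in 1-IC, and 321917, 301583 and 52888 UMIs in sum. The 2-IC libraries shared 76 barcode sequences, and the copy with fewer UMIs held a median of 1.90% of the UMIs of the other. Among the myeloid barcodes, 5 of the 12 in 2-IC replicate 2 and 1 of the 46 in replicate 1 had such a counterpart, and 0 were members in both. The share in 2-IC replicate 2 was 1.03% (7 of 680) with the shared barcodes left out. In 2-IC replicate 1, 5 pairs of members had counts that differed by little more than sampling noise, with a chi-square per degree of freedom of 1.12 to 1.28 against a median of 8.62 over 780 pairs. No such pair was found in the other libraries, where the lowest values were 4.87 and 6.20, and the limit of 1.5 was set after the values were seen. Scrublet called 0 of the 71 barcodes as doublets, but it marked 0.377% of all barcodes, too few to show that doublets were found. The nuclear RNA Malat1 took a median of 0.810%, 4.09% and 0.0444% of the UMIs of the myeloid barcodes in the same order of libraries, against 3.01%, 5.73% and 8.06% in barcodes with none of the 6 rule genes. The part of Malat1, depth and shared barcodes in the results below was not tested, and values without the shared barcodes are given for the main lists and genes.

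The gene rule took in barcodes with very different content. Lyz2 ranged from 1 to 324 UMIs with a median of 8, and Tyrobp from 1 to 48 with a median of 3. Levels of summed barcodes are given as CPM, the UMIs of a gene scaled to a sum of 1000000. Lyz2 was at 5383 CPM in 2-IC replicate 1, 338 in replicate 2 and 7223 in the 1-IC library, and Tyrobp at 895, 388 and 1796. Both were lowest in 2-IC replicate 2. Lyz1, a near-identical paralog of Lyz2, was counted separately, so that the split of reads between them is uncertain.

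Just inside the threshold were 12 barcodes with exactly 1 UMI of Lyz2 and 1 of Tyrobp, of which 10 came from 2-IC replicate 1, 2 from replicate 2 and 0 from the 1-IC library. Summed, these 12 held 0 CPM of Fcer1g, 129 CPM of H2-Aa and 17523 CPM of Cxcl13. The other 59 held 783 CPM of Fcer1g, 3578 CPM of H2-Aa and 7473 CPM of Cxcl13. Just outside, 196 barcodes with 1 UMI of Lyz2 and 0 of Tyrobp held 8.97 CPM of Fcer1g and 95.2 CPM of H2-Aa. The 20 barcodes with at least 2 UMIs of Tyrobp and 0 of Lyz2 held 695 CPM of Fcer1g and 4178 CPM of H2-Aa, close to the levels inside. Fcer1g was detected in 45 of the 71 barcodes, H2-Aa in 47, Cd74 in 63 and Ptprc in 24. Of the 59 barcodes with more than 1 UMI of either rule gene, 45 held Fcer1g and 29 held at least 10 of 18 other myeloid genes, while 24 had over 2% of their UMIs from stromal genes. The myeloid label thus had support in part of these barcodes and little in those with 1 UMI of each rule gene.

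**Figure D1:**
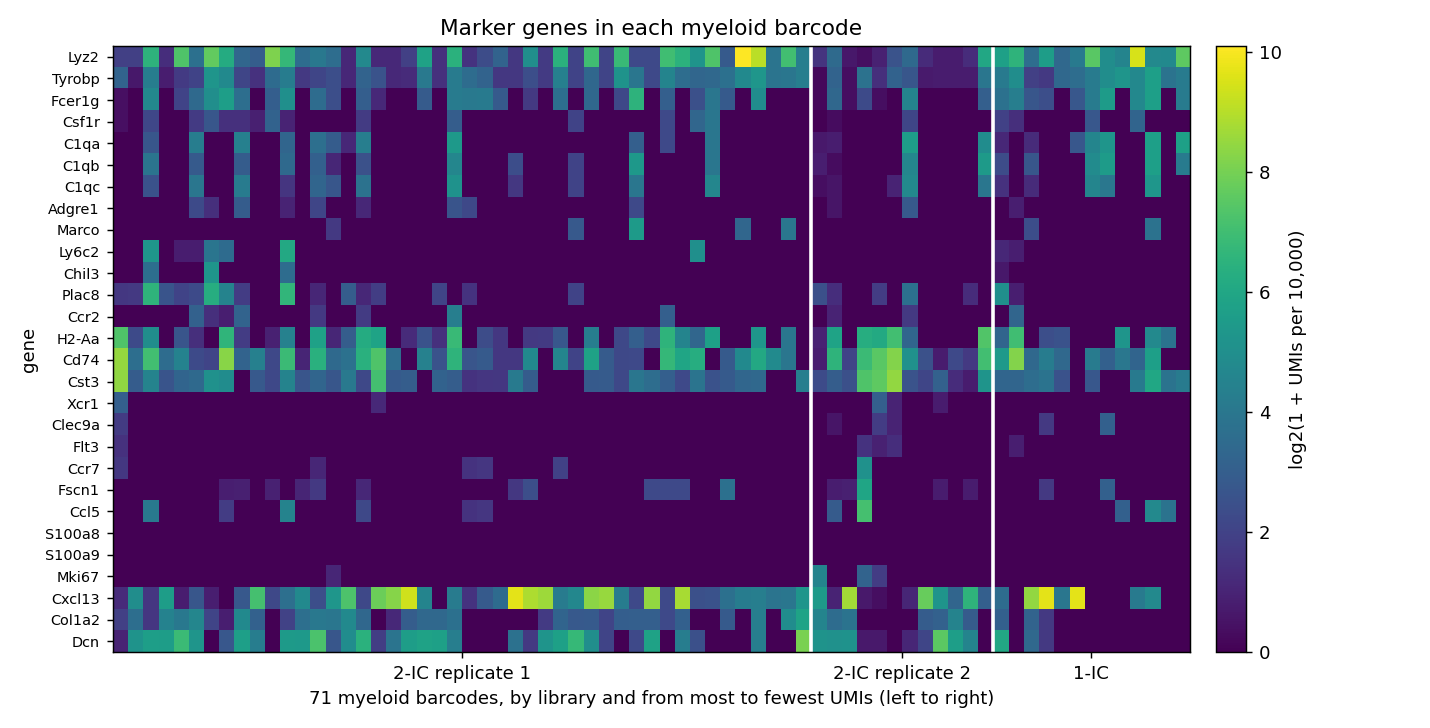
Marker genes (rows) in each of the 71 myeloid barcodes (columns), coloured by log2(1 + UMIs per 10000), with the libraries separated by white lines and barcodes ordered from most to fewest UMIs within a library. C1q genes and the dendritic cell genes Xcr1 and Ccr7 lie mostly in different columns, S100a8 and S100a9 are empty, and Cxcl13 is bright in columns where Fcer1g is mostly dark.

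To ask which other RNAs accompany Lyz2 and Tyrobp, the UMIs of the myeloid barcodes were summed per library and compared with gate-negative barcodes, the 2215 with 0 UMIs of all 6 rule genes. Of 11187 genes tested with edgeR (quasi-likelihood test, library as a block, Benjamini-Hochberg adjusted p under 0.05), 795 (7.11%) were higher and 605 (5.41%) lower in the myeloid barcodes. The median log2 fold change of all genes tested was -0.12. Because each list below was assembled with results of these data known, its count is a description beside these shares. Genes near 0 in the other sums of the fit could pass its filter on low counts only through the myeloid sums. Their direction was then fixed before the test, and the list counts and medians below include such genes.

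Of 18 other genes shared by myeloid cells, 17 were higher and 1 did not pass (median log2 fold change 5.43). Fcer1g was at 960, 318 and 1324 CPM (2-IC replicate 1, then replicate 2, then 1-IC, an order kept for all values given in threes), against 3.44, 0.961 and 4.89 CPM in the gate-negative barcodes. The log2 fold change was 8.07 (SE 0.29, edgeR adjusted p = 2.73e-13). With at most 5.84 CPM in any B cell sum too, Fcer1g passed the filter on low counts only through the myeloid sums. Its direction was thus fixed before the test, and its fold change is a description. Ptprc (CD45) was at 211, 172 and 643 CPM against 6.05, 4.0 and 1.95 CPM, a log2 fold change of 5.73 (SE 0.37, edgeR adjusted p = 6.41e-10). Ptprc RNA was thus present in barcodes that, per the labels, had passed a sort against CD45 protein. The paper describes this sort by TdTomato and Podoplanin on live cells and names no CD45 gate for it. Spi1, which encodes PU.1, was at 242, 153 and 473 CPM against 3.91, 1.12 and 0.489 CPM (log2 fold change 6.57, SE 0.34). The gene that did not pass was Cebpb, a factor also used outside myeloid cells, at 285 ± 95.8 CPM against 349 ± 70.3 (SD, n = 3 libraries). With the shared barcodes left out, 17 of the 18 were higher and the log2 fold change of Fcer1g was 8.13.

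Genes downstream of ITAM adaptors and Fc receptor genes were higher in 13 of 13 tested (median log2 fold change 5.59), and in 12 of 12 with the shared barcodes left out. The list held 16 genes. Clec7a, Fcgr1, Fcgr3 and Lilrb4a had few or no UMIs in the other sums and passed the filter only through the myeloid sums. The filter thus fixed part of this count. Clec7a, with the highest mean level of the list over the 3 libraries but not in 2-IC replicate 1, encodes Dectin-1, a receptor for fungal beta-glucan, and was at 65.2, 116 and 435 CPM against at most 0.489 CPM in any gate-negative sum. Its log2 fold change was 7.97 (SE 0.48, edgeR adjusted p = 2.23e-10). Fcgr1, the high-affinity IgG receptor, was at 77.7, 19.9 and 18.9 CPM, and the 1-IC value is 1 UMI. Fcgr2b, the inhibitory IgG receptor, is also made by FDCs and B cells and differed less (189, 29.8 and 113 CPM against 23.0, 16.8 and 46.4, log2 fold change 2.06, SE 0.38).

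Macrophage genes were higher in 13 of 16 tested, with 3 that did not pass (median log2 fold change 4.71). The 10 other genes of the 26 on the list were below the filter on low counts. C1qa, C1qb, C1qc, Adgre1, Ms4a7, Fcgr1 and Siglec1 were near 0 in the other sums and passed this filter only through the myeloid ones. The filter thus fixed their direction, and the count and median are descriptions. With the shared barcodes left out, 13 of 16 were higher. C1q is the complement component that binds antibody in immune complexes. C1qa was at 401, 318 and 378 CPM (366 ± 42.6, SD, n = 3) against 1.19, 0.641 and 0 CPM, with a log2 fold change of 8.68 (SE 0.30, edgeR adjusted p = 2.68e-13, and 9.21 without the shared barcodes). In 2-IC replicate 2, 1 barcode held 85 of the 96 C1qa UMIs (88.5%). C1qb was at 323 ± 169 CPM against 1.01 ± 0.392 and C1qc at 250 ± 70.5 CPM against 1.68 ± 1.11. Lgmn, a lysosomal protease, was at 308, 388 and 56.7 CPM against 14.6, 14.7 and 12.2 CPM, with a log2 fold change of 4.31 (SE 0.33, edgeR adjusted p = 8.80e-09). Csf1r, the receptor for the macrophage growth factor M-CSF, was at 110 ± 77.0 CPM against 5.42 ± 0.689. Markers of some tissue macrophages were at or near 0, with 0 UMIs of Vsig4 and 4 UMIs of Cd163 in all 71 barcodes. Marco, a scavenger receptor of medullary sinus macrophages, was found in 5 barcodes of 2-IC replicate 1 and 2 of the 1-IC library, and 1 barcode held 66.7% of its UMIs in the first.

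A UMI of at least 2 of C1qa, C1qb and C1qc was found in 22 of the 71 barcodes, 12, 4 and 6 by library. Those of 2-IC replicate 1 include the near-identical pairs ranked 6 and 9 and ranked 3 and 12. With each pair counted once 10 remained there. The barcodes ranked 6 and 9 held 24 C1qa UMIs each, of 129 in that library. Genes of the macrophage list that were not used for the split by C1q genes were not all higher in every C1q-bearing sum. Lgmn was at 973 CPM in the C1q-bearing barcodes of 2-IC replicate 1 against 30.8 CPM in the other myeloid barcodes, at 891 against 39.3 CPM in replicate 2, and at 104 against 0 CPM in the 1-IC library. Ms4a7 was at 233, 122 and 139 CPM against 26.4, 0 and 0 CPM. Both were higher in the C1q-bearing sum of both 2-IC libraries. In the 1-IC library they rest on 3 and 4 UMIs against 0, which shows no direction at this depth, and Lgmn was below the count filter of the split's own test. Mrc1, the mannose receptor, was at 233, 113 and 0 CPM against 0 in all 3. Adgre1 (F4/80) was at 233, 105 and 0 CPM against 17.6, 0 and 41.5 CPM, and Cd68 at 63.4, 219 and 139 CPM against 92.4, 22.5 and 124 CPM. The Cd68 level was lower in the C1q-bearing sum of 2-IC replicate 1, on few UMIs, and the Adgre1 value of the 1-IC library is 1 UMI, which shows no direction. H2-Aa went the other way, at 2770, 2220 and 591 CPM against 3092, 4233 and 7011 CPM, but did not pass (log2 fold change -1.76, edgeR adjusted p = 0.996). In 2-IC replicate 1, 1 barcode outside the C1q-bearing part held 460 of the 965 H2-Aa UMIs of all myeloid barcodes. In the 1-IC library 1 such barcode held 160 of 186. The levels of the other myeloid barcodes in these libraries thus rest largely on 1 barcode each. Of 1669 genes tested between these parts, edgeR called 0 (0%) and DESeq2 0, and 54 had an unadjusted p under 0.05. The 4 C1q-bearing barcodes of 2-IC replicate 2 were too few for a sum, so that 5 sums entered the test. Stromal RNA was found in these barcodes too, since 14 of the 22 had over 1% of their UMIs from 17 stromal genes, against 27 of the other 49.

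Dendritic cell genes were higher in 14 of 17 tested, with 3 that did not pass (median log2 fold change 2.78), and 11 of 17 were higher with the shared barcodes left out. Cst3, cystatin C, an inhibitor of cathepsins that is abundant in conventional dendritic cells, was at 4281, 6526 and 964 CPM against 727, 532 and 696 CPM. Its log2 fold change was 2.43 (SE 0.42, edgeR adjusted p = 0.000382, and 2.54 without the shared barcodes). Irf8, a factor of conventional type 1 dendritic cells, was at 425 ± 155 CPM against 137 ± 5.70 (log2 fold change 1.57, SE 0.23, edgeR adjusted p = 4.89e-05). In barcodes with no collagen UMI, of which sums of 6 and 8 from 2 libraries entered the fit, neither passed (edgeR adjusted p = 0.403 for Cst3 and 0.629 for Irf8). Those sums held 14 and 10 UMIs of Cst3 and 4 and 1 UMIs of Irf8, too few to give a direction.

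These sums rested on few barcodes. In 2-IC replicate 1, the barcode with the most UMIs (28940) held 994 of the 1378 Cst3 UMIs (72.1%), 21 of the 22 Xcr1 UMIs and all 7 Clec9a UMIs. Xcr1, a chemokine receptor, and Clec9a, a receptor for dead cells, mark cross-presenting dendritic cells. In 2-IC replicate 2, the barcode ranked 5 by UMIs held 24 of the 27 Xcr1 UMIs, 8 of the 12 Clec9a UMIs and 630 Cst3 UMIs. The barcode ranked 6 held the most Cst3 UMIs there, 706 (35.9%), with 2 UMIs of Xcr1 and 2 of Clec9a. A different barcode there, ranked 4, held all 112 Ccr7 UMIs, 201 of 209 Fscn1 UMIs and 473 of 499 Ccl5 UMIs. Ccr7 and Fscn1 are genes of migratory, mature dendritic cells, and this barcode had 44 UMIs of Tyrobp and 1 of Lyz2. The barcodes ranked 4 and 5 of 2-IC replicate 2 are among the 5 whose sequence also occurs in replicate 1, and the one ranked 6 is not. No Xcr1 or Ccr7 UMI was found in the 1-IC library, where 0 UMIs allow up to 56.7 CPM. Fscn1 was higher in the sum (log2 fold change 2.53, SE 0.46, edgeR adjusted p = 0.000661), but without 2-IC replicate 2 its value was 0.52 (edgeR adjusted p = 0.599) and without the shared barcodes 0.10 (edgeR adjusted p = 0.933). Ccl5 was at 165, 1655 and 75.6 CPM against 9.25, 1.92 and 41.0 CPM (log2 fold change 5.34, SE 0.92, edgeR adjusted p = 0.000378). Its log2 fold change was 2.99 without the shared barcodes and 3.14 without 2-IC replicate 2, and it still passed (edgeR adjusted p = 0.000391 and 7.97e-18). These values rest on few barcodes too. In 2-IC replicate 1 the near-identical pair ranked 3 and 12 held 84.9% of the 53 Ccl5 UMIs, and 1-IC had 4 UMIs.

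Of 8 monocyte genes tested, 6 were higher, 1 (Nr4a1) was lower and 1 did not pass (median log2 fold change 5.14), with the same counts when the shared barcodes were left out. Plac8 was at 1261, 222 and 1040 CPM against 237, 132 and 237 CPM (log2 fold change 1.64, SE 0.26, edgeR adjusted p = 0.000146). A single barcode held 54 of the 55 Plac8 UMIs of the 1-IC library. Plac8 was at 1.81 without the shared barcodes, and without the library block it did not pass (edgeR adjusted p = 0.0597). Ly6c2, the surface marker of inflammatory monocytes, was found in 7, 0 and 2 barcodes by library, with at least 10 UMIs in 4, all of them in 2-IC replicate 1. Chil3, another gene of these cells, was found in 3, 0 and 1 barcodes. A near-identical pair, ranked 3 and 12 in 2-IC replicate 1, held 75.8% of the Ly6c2 UMIs and 58.6% of the Plac8 UMIs of that library. Values of Ly6c2 and Chil3 with each such pair counted once are not given here.

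Neutrophil genes were scarce. S100a8 and S100a9, alarmins that neutrophils make in large amounts, and Retnlg had 0 UMIs in all 71 barcodes, and a count of 0 allows up to 9.32, 9.95 and 56.7 CPM by library. Of 18 listed genes 5 were tested, 1 was higher, 1 (Il1r2) was lower and 3 did not pass. The one that was higher, Mxd1, encodes a repressor of Myc targets that many cells express, and was at 31.1, 89.5 and 0 CPM against 16.8, 15.2 and 13.7 CPM (log2 fold change 1.66, SE 0.41, edgeR adjusted p = 0.00972). With the shared barcodes left out, 0 of 4 neutrophil genes tested were higher. G0s2 was at 83.9, 9.95 and 0 CPM and Mmp9 at 18.6, 49.7 and 0 CPM, and neither passed (edgeR adjusted p = 0.445 and 0.671). Clec4d had 15 UMIs in 3 barcodes.

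Markers of other blood cells were mostly few, with exceptions. None of 8 NK cell genes had a UMI (Eomes 0), and among 7 mast cell and basophil genes only Kit was found, with 13 UMIs in 6 barcodes. Of 3 plasmacytoid dendritic cell genes tested, 0 passed in either direction, and Bst2 was at 386 ± 200 CPM against 266 ± 153 (SD, n = 3). Of 10 B cell genes tested, Ighm was higher, Ebf1 lower and 8 did not pass. Ighm, the IgM heavy chain, was at 183, 39.8 and 170 CPM against 71.1, 17.3 and 26.4 CPM (log2 fold change 1.51, SE 0.28). Ebf1, which stromal cells also express, was at 332, 282 and 246 CPM against 654, 618 and 538 CPM (log2 fold change -1.09, SE 0.23). Of 2 T cell genes tested 1, Cd4, was higher, at 55.9, 16.6 and 18.9 CPM against at most 0.489. The 1-IC value of Cd4 is 1 UMI. With at most 0.449 CPM in any B cell sum, Cd4 passed the filter on low counts only through the myeloid sums, which fixed this direction. Cd8a, which cross-presenting dendritic cells also make, had 32 UMIs in 4 barcodes. Of 2 endothelial genes tested, Ly6c1 was lower and Pecam1, at 14.7 ± 7.01 CPM against 5.02 ± 2.67, did not pass. The platelet gene Itga2b was the 1 gene tested of its list, at 6.21, 0 and 0 CPM, and did not pass (edgeR adjusted p = 0.0729).

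Class II genes were higher in 10 of 10 tested (median log2 fold change 3.95), also with the shared barcodes left out. H2-Aa was at 2998, 3409 and 3517 CPM against 94.1, 47.4 and 65.5 CPM, with a log2 fold change of 5.52 (SE 0.28, edgeR adjusted p = 1.69e-11). Cd74 was at 7337, 6887 and 9019 CPM against 511, 217 and 788 CPM (log2 fold change 4.03, SE 0.28). H2-Eb1 was at 3025 ± 131 CPM against 67.1 ± 27.8 and H2-Ab1 at 2502 ± 212 CPM against 161 ± 47.3. The sums were even across libraries but not across barcodes. A single barcode held 47.7% of the H2-Aa UMIs in 2-IC replicate 1, and a different one 86.0% in 1-IC.

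**Figure D2:**
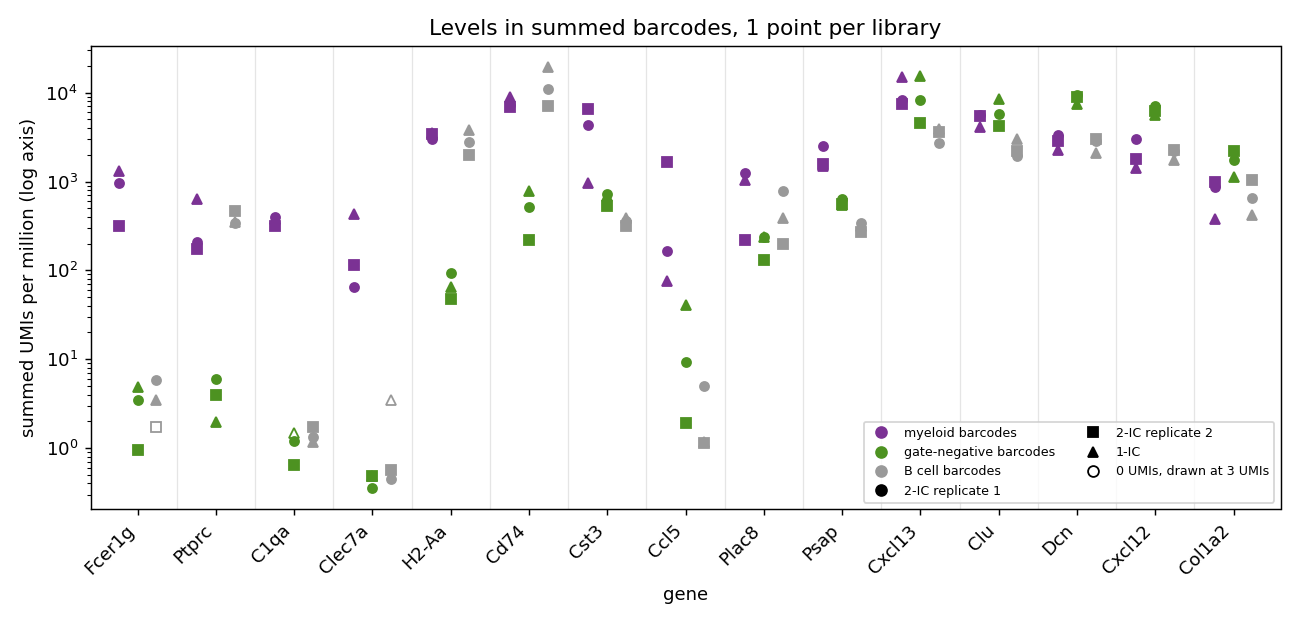
Levels of 15 genes in CPM of summed barcodes (log axis), 1 point per library (marker shape) for myeloid, gate-negative and B cell barcodes (colour), with sums of 0 UMIs drawn open at the level of 3 UMIs. Fcer1g, C1qa and Clec7a are far higher in the myeloid sums, the class II genes are as high in B cell sums, and Dcn, Cxcl12 and Col1a2 of the myeloid sums lie with those of B cells.

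Of 16 lysosomal genes 8 were higher and 8 did not pass (median log2 fold change 0.71). With the shared barcodes left out, 10 of 15 were higher, and without the library block 4 of 16. Psap, the precursor of the saposins, was at 2504, 1585 and 1494 CPM against 634, 556 and 542 CPM (log2 fold change 1.57, SE 0.20, edgeR adjusted p = 1.46e-05). Of 12 inflammatory genes 5 were higher, among them Il1b at 49.7, 232 and 246 CPM against at most 0.711, 1 was lower and 6 did not pass. With at most 1.12 CPM in any B cell sum, Il1b passed the filter on low counts only through the myeloid sums, which fixed its direction. All its UMIs in 2-IC replicate 2 lay in shared barcodes, 44 of them in the barcode ranked 4. In the 1-IC library 1 barcode held 10 Il1b UMIs, most of those there. The lower gene of this list, Ccl2, a chemokine for monocytes, was at 77.7, 315 and 548 CPM against 400, 662 and 321 CPM (log2 fold change -1.09, SE 0.31, edgeR adjusted p = 0.0251). It was lower in both 2-IC libraries and higher in the 1-IC library. Of 6 proliferation genes 3 were higher, and these rested on 1 library. Mki67 was at 3.11, 600 and 0 CPM, and the barcode with the most UMIs in 2-IC replicate 2 held 145 of the 181 Mki67 UMIs there together with 145 UMIs of Col1a2. The log2 fold change of Mki67 was 2.94 (SE 0.58, edgeR adjusted p = 0.00141), and without that library it was -1.65 (edgeR adjusted p = 0.551). That barcode is one of the shared ones, and with these left out 0 of 4 proliferation genes tested were higher.

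The largest rises by the fit, among called genes with the same sign in all 3 libraries, were Cd300c2, Clec4a1, Ccl6, Ptafr, Clec4e and Fcgr1. In the 1-IC library Ccl6, Ptafr and Fcgr1 had 1 UMI each in the myeloid barcodes and Clec4e had 2, which shows no direction there. Each had 1 to 5 UMIs in all gate-negative barcodes, so that the size of the fold and the order of these genes are uncertain. With few or no UMIs in the B cell barcodes too, these genes passed the filter on low counts only through the myeloid sums. Their direction was thus fixed before the test, and their rank as largest rises is a description. Clec4a1 and Clec4e (Mincle) are C-type lectin receptors, Ptafr is the receptor for platelet-activating factor and Ccl6 a chemokine of macrophages. Cd300c2 was at 112, 36.5 and 208 CPM in 16 barcodes, against 0.119, 0 and 0 CPM, and its ratio of summed levels was 1434 (exact 95% interval 247 to 57618, for 58 against 1 UMI). Ccl6 was at 62.1, 497 and 18.9 CPM in 12 barcodes, with a ratio of 846 (355 to 2638, for 171 against 5 UMIs). Of its UMIs 150 came from 2-IC replicate 2, and without that library the ratio was 147 (49.5 to 588, for 21 against 4 UMIs). These intervals cover counting error only. The lowest bounds of the other 4 intervals ran from 132 for Fcgr1 to 224 for Clec4a1. Clec4a1 was found in 17 barcodes, Ptafr in 14, Clec4e in 11 and Fcgr1 in 8.

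The largest falls were genes with 0 UMIs in all 71 barcodes, for which the fit gives no bound. Set against 3 UMIs over the group, Efemp1, an extracellular matrix protein, was at least 10.7-fold lower than in gate-negative barcodes (56.8, 42.9 and 23.0 CPM). The chemokine gene Cxcl5 was at least 7.56-fold lower, the hyaluronan synthase gene Has1 at least 6.98-fold and 1810011O10Rik at least 6.52-fold. Nap1l5 was at least 4.19-fold lower and the proenkephalin gene Penk at least 3.87-fold. None of the 6 was detected in the myeloid barcodes. In the 1-IC library alone a count of 0 allows 56.7 CPM, above the gate-negative level of all 6 there (11.2 to 27.8 CPM), so that no direction can be read in it.

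**Figure D3:**
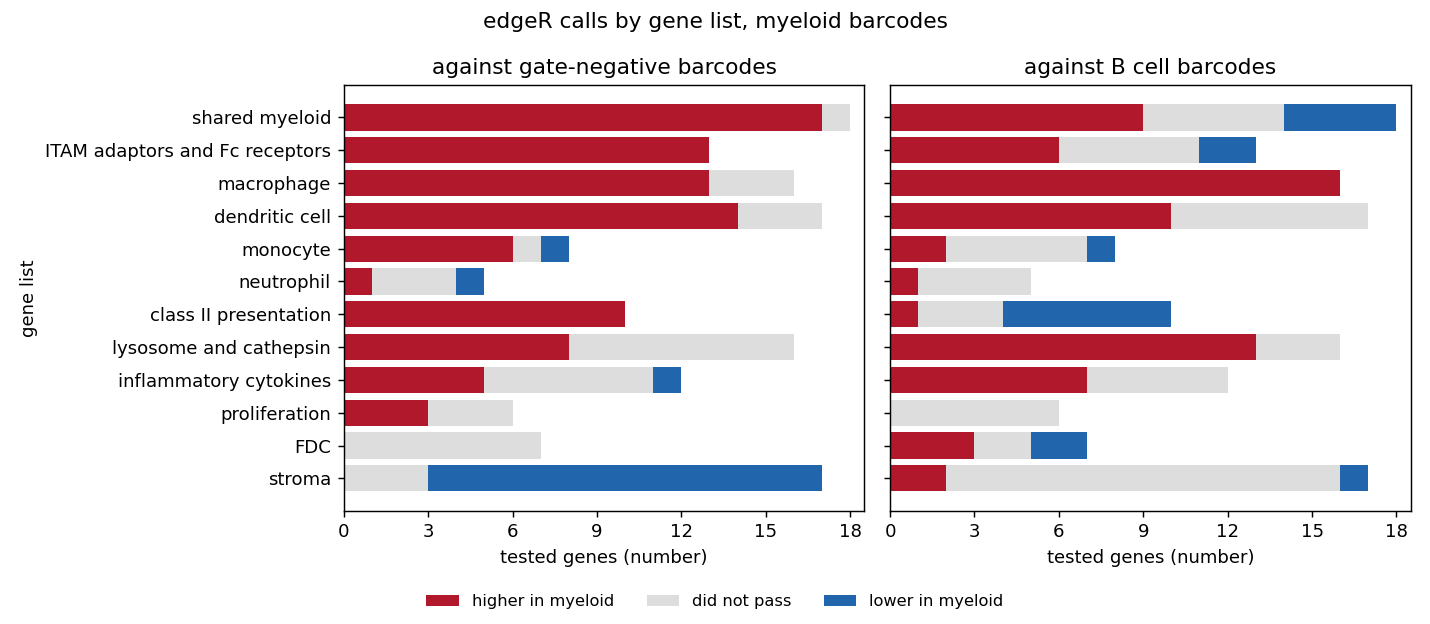
Number of tested genes of each list that were higher (red), lower (blue) or did not pass (grey) in edgeR, for myeloid against gate-negative barcodes (left) and against B cell barcodes (right). On the left 13 of 13 ITAM and Fc receptor genes were higher and 14 of 17 stromal genes lower, and on the right 16 of 16 macrophage genes were higher. For the ITAM, Fc receptor and macrophage genes with few or no UMIs in the other sums, the filter on low counts fixed this direction.

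Stromal RNA was present in most of the myeloid barcodes. Of 17 stromal genes, 14 were lower than in gate-negative barcodes and 3 did not pass (median log2 fold change -1.28), and 14 of 16 were lower with the shared barcodes left out. Dcn, the matrix proteoglycan decorin, was at 3342, 2842 and 2269 CPM against 9349, 8970 and 7404 CPM. Its log2 fold change was -1.73 (SE 0.18, edgeR adjusted p = 7.85e-07). Col1a2 was at 873, 985 and 378 CPM against 1747, 2219 and 1121 CPM (log2 fold change -1.28, SE 0.21, edgeR adjusted p = 0.000172, and 0.114 without the library block). Cxcl12 was at 2068 ± 817 CPM against 6335 ± 814 and Igfbp7 at 1696 ± 410 CPM against 4108 ± 850 (SD, n = 3). All 4 were lower in each of the 3 libraries.

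Cxcl13 was one of the stromal genes that did not pass. It was at 8353, 7544 and 15013 CPM in the myeloid barcodes and at 8337, 4529 and 15379 CPM in the gate-negative barcodes, with a log2 fold change of 0.06 (SE 0.23, edgeR adjusted p = 0.920). The levels of both groups overlap. Of 7 FDC genes, 0 were higher and 0 lower, and Clu, the most abundant, was at 5080 ± 865 CPM against 6123 ± 2094.

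The Cxcl13 UMIs were unevenly spread. In 2-IC replicate 2, 1 barcode held 1459 of 2275 (64.1%), and in the 1-IC library 2 barcodes held 78.6%. The 27, 5 and 10 barcodes by library with at least 2 UMIs of both Lyz2 and Tyrobp held 3395, 71.3 and 8966 CPM of Cxcl13. With this stricter gate Cxcl13 was lower than in the gate-negative barcodes (log2 fold change -1.81, edgeR adjusted p = 0.0222). The Cxcl13 call thus depended on the number of UMIs the gate asked for. Dcn and Col1a2 were lower under both gates, at -2.01 and -1.71 under the stricter one, and 14 of the 17 stromal genes were lower there too. Without the library block 4 of the 17 were lower.

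Per barcode, the 17 stromal genes took from 0% to 8.47% of UMIs, with a median of 1.91%. They were under 0.5% in 28 barcodes and over 2% in 35. Of the 26 barcodes without Fcer1g 19 were over 2%, and of the 12 with 1 UMI of each rule gene 11 were. By library, the median was 2.44%, 1.90% and 0.259%. At the low end, the barcode with the most Xcr1 UMIs in 2-IC replicate 1 had 0.0726% and the Ccr7 barcode of replicate 2 0.0268%. At the high end, the barcode ranked 4 in the 1-IC library had 8.33%, with 372 UMIs of Cxcl13 and 22 of Lyz2. The barcode ranked 5 in 2-IC replicate 1 had 3.17%, with 207 UMIs of Lyz2 and 153 of Dcn. Whether barcodes with both RNAs are doublets, cells with free RNA or single cells that make both cannot be told apart here.

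**Figure D4:**
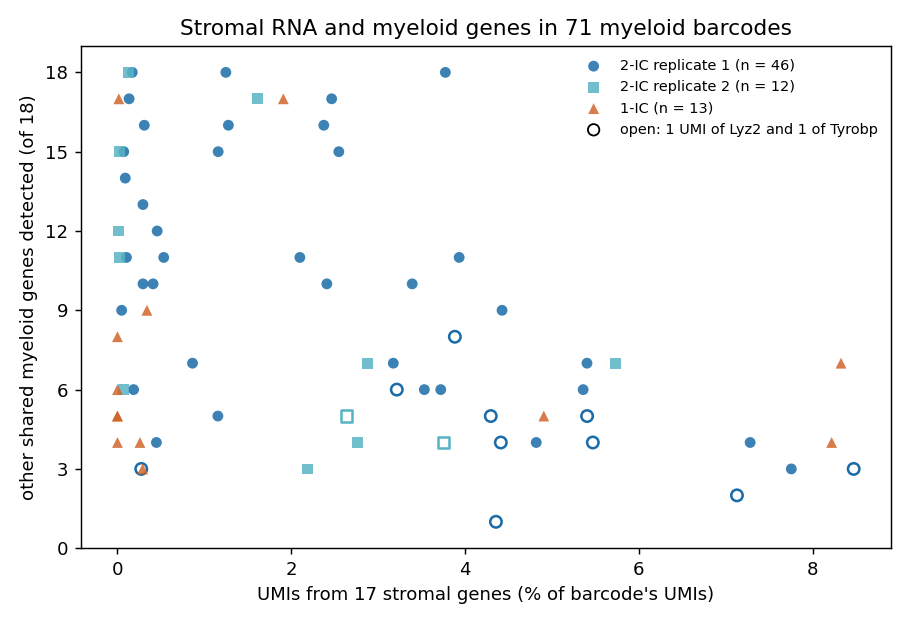
Each point is 1 of the 71 myeloid barcodes, by the percent of its UMIs from 17 stromal genes (x axis) and the number of 18 other shared myeloid genes detected (y axis), with colour and shape for the library and open points for 1 UMI each of Lyz2 and Tyrobp. All but 1 of the 12 open points lie above 2% stromal UMIs with at most 8 myeloid genes.

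B cell barcodes, the 915 with Cd79a and Cd79b and none of the other rule genes, gave the stromal RNA of another barcode group in the same libraries. This gate set no limit on stromal genes, so that stromal barcodes carrying B cell RNA could be among them. Cxcl13 had a UMI in 95.7%, 91.7% and 53.8% of myeloid barcodes, in 65.2%, 55.4% and 31.8% of B cell barcodes and in 93.9%, 90.0% and 90.8% of gate-negative barcodes. The B cell barcodes had medians of 4799, 7104 and 3482 UMIs. Thinned to 1000 UMIs each, with 6 myeloid and 22 B cell barcodes under that depth left out, the shares were 67.4%, 75% and 50% against 35.3%, 27.7% and 24.0%. The myeloid share stayed above that of B cells in every library. Col1a2 after thinning was in 48.8%, 41.7% and 10.0% of myeloid against 29.7%, 21.8% and 8.38% of B cell barcodes.

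**Figure D5:**
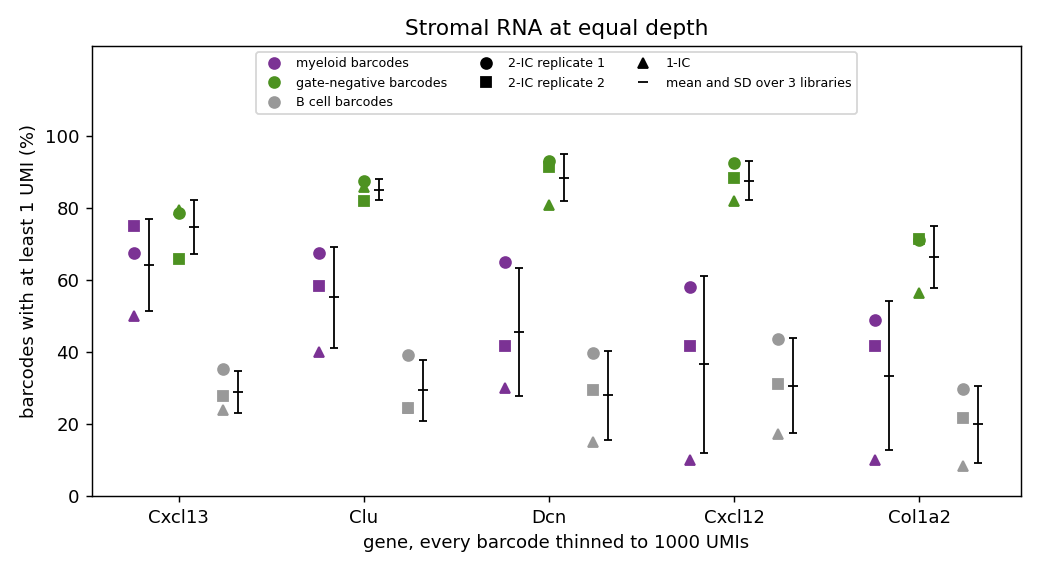
Percent of barcodes with at least 1 UMI of 5 stromal or FDC genes after thinning each barcode to 1000 UMIs, 1 point per library (shape) and barcode group (colour), with mean and SD over 3 libraries beside them. For Cxcl13 the myeloid shares run from 50% to 75%, above the B cell shares of 24.0% to 35.3%.

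In the same edgeR fit, 666 genes (5.95% of 11187) were higher in myeloid than in B cell barcodes and 819 (7.32%) lower, with a median log2 fold change of -0.08. Without TMM scaling the split was 1172 higher and 542 lower. Of the 17 stromal genes, 2 (Cxcl13 and Pdpn) were higher, 1 (Lum) lower and 14 did not pass, with a median log2 fold change of 0.01. Cxcl13 was at 10303 ± 4099 CPM against 3405 ± 617 (SD, n = 3, log2 fold change 1.17, SE 0.23, edgeR adjusted p = 0.00167). With at least 2 UMIs of both rule genes it was at -0.93 (edgeR adjusted p = 0.370), and without the library block at 1.21 (edgeR adjusted p = 0.0951). For Dcn the log2 fold change was -0.25 (SE 0.18, edgeR adjusted p = 0.412) and for Col1a2 -0.19 (SE 0.20, edgeR adjusted p = 0.606). No difference between the sums was thus detected for either. Single barcodes of the 2 groups were further apart than the sums. The 17 stromal genes took a median of 2.44%, 1.90% and 0.259% of UMIs in myeloid barcodes. In B cell barcodes the medians were 0.198%, 0.0804% and 0.0145%, and this difference was not tested.

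Macrophage genes were higher than in B cell barcodes in 16 of 16 tested (median log2 fold change 4.10), and lysosomal genes in 13 of 16. For macrophage genes near 0 in the B cell and gate-negative sums, such as C1qb and Fcgr1, the filter on low counts fixed this direction. Dendritic cell genes were higher in 10 of 17, with 7 that did not pass (median log2 fold change 1.84). ITAM and Fc receptor genes were higher in 6 of 13 (Btk and Syk, which B cells also use, were lower), and monocyte genes in 2 of 8, with a median log2 fold change of 0.03. Fcer1g had a log2 fold change of 7.49 (SE 0.31, edgeR adjusted p = 4.63e-12), a direction that the filter fixed too. Of the 10 class II genes 1, H2-DMb1, was higher, 6 were lower and 3 did not pass. Cd74 was lower (log2 fold change -0.87, SE 0.25, edgeR adjusted p = 0.0251), and H2-Aa was at 3308 ± 274 CPM against 2861 ± 917 and did not pass (log2 fold change -0.08, SE 0.23, edgeR adjusted p = 0.879). Of 18 shared myeloid genes 9 were higher, 4 (Cd52, Cd53, Coro1a and Rac2, which lymphocytes also express) lower and 5 did not pass. B cell genes were lower in 10 of 10, a direction that the choice of groups fixed.

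Between libraries, the summed myeloid barcodes differed widely. Of 835 genes with at least 200 CPM in either 2-IC library, 169 (20.2%) were at least 2-fold apart. Of 857 between 2-IC replicate 1 and the 1-IC library 198 (23.1%) were, and of 921 between 2-IC replicate 2 and the 1-IC library 375 (40.7%). The libraries of one condition thus differed by nearly as many genes as the first of them did from the other condition, and 2-IC replicate 2 stood furthest from the 1-IC library. Condition was not tested.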

How the data were processed

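The authors made 3 libraries with Chromium 3' chemistry, processed the reads with Cell Ranger (5.0.0 in the file headers) on GRCm38 with Ensembl release 89, and deposited raw UMI counts of each gene in each barcode. Labels do not tie mice to libraries, and the paper describes 3 independent experiments with lymph nodes pooled over mice. With library as a block, the p-values thus measure how differences between barcode groups vary from library to library, which may be technical. The members and gene lists were chosen with earlier results of these data known. Rows sharing a symbol were added. Counts were summed per library and barcode group, leaving out sums of under 5 barcodes, and expressed as CPM with the SD over 3 libraries. The sums were fitted in edgeR 4.0.16 (R 4.3.3) by the quasi-likelihood test after TMM scaling and filterByExpr, with library as a block, since all sums of a library come from 1 cell suspension. Calls had a Benjamini-Hochberg adjusted p under 0.05, and the 6 rule genes were not tested. DESeq2 1.42.0 was an alternative, and the fit was tested on simulated data. Named genes were the fixed markers, the 4 most abundant genes of the macrophage, dendritic cell, neutrophil, class II and stroma lists, the most abundant gene of every other list, and the 6 largest called rises and falls with the same sign in all libraries at any depth. Other genes named were chosen after their values were seen. Summed depth ran from 52888 to 321917 UMIs in the myeloid barcodes. Intervals are exact 95%, and a count of 0 allows 3 UMIs. Scrublet (scanpy 1.11.5) calls were left in.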

Additional observations from a re-analysis of the deposited data

Results flagged for a closer look

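For Ccl2, the level in myeloid against gate-negative barcodes differed in direction between the 2-IC libraries and the 1-IC library, and for Cxcl13, Bst2, Mxd1 and Kit the sign differed without showing a direction in each library. The difference between conditions was not tested, since 1-IC has 1 library. Cxcl13 was at 15013 CPM in the 1-IC myeloid sum against 15379 CPM in the gate-negative one. It was at 8353 against 8337 CPM in 2-IC replicate 1, nearly equal, and at 7544 against 4529 CPM in replicate 2. Bst2 was at 416 against 426 CPM in 1-IC, also nearly equal, and higher in both 2-IC libraries. Ccl2 was at 548 against 321 CPM in 1-IC and lower in both 2-IC libraries. Mxd1 and Kit had 0 UMIs in the 1-IC myeloid sum, where 3 UMIs would be 56.7 CPM, against 13.7 and 1.95 CPM in the gate-negative one, so that no direction can be read for them in 1-IC.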

How the results depend on the processing

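Of the alternatives for single named genes, 1038 kept direction and call, 82 lost it, 34 gained it and 16 reversed. Against gate-negative barcodes, the 795 genes higher became 79 in barcodes with no collagen UMI, 136 after thinning to 1000 UMIs and 550 to 699 with a library left out. The 605 lower became 284, 216 and 389 to 467. Against B cell barcodes, the 666 higher became 41, 158 and 382 to 536, and 1172 without TMM, and the 819 lower became 316, 382 and 452 to 731, and 542 without TMM. The library block pairs sums of 1 suspension, and without this pairing 170 genes were lower than in gate-negative barcodes, and 284 were higher and 399 lower than in B cell barcodes. Between C1q-bearing and other barcodes, no filter on low counts gave 8 higher and 5 lower. The fits with no collagen UMI, with thinning and without 2-IC replicate 1 or 1-IC could not be made there. These alternatives use fewer barcodes, genes or libraries, and the causes of the other shifts were not tested.

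A gate of 2 UMIs each gave shares of 0.862% and 0.661% in the 2-IC libraries and 1.60% in 1-IC, and thinning before the gate 0.908%, 0.417% and 1.67%. Removing every barcode with a UMI of the study's 13 contaminant genes gave 3.37% in 1-IC, against 2.08%. The mean Cxcl13 level at the gate of 2 UMIs each was 4144 CPM. After thinning, 66.2% of myeloid barcodes held Cxcl13 and 41.5% Col1a2, and with a library left out 72.0% to 94.8% and 40.0% to 72.4%. With 3 or more markers asked for, 38 barcodes held macrophage, 53 dendritic cell and 4 neutrophil genes, and after thinning 18, 16 and 0. Before thinning the shares elsewhere were 16.9%, 41.2% and 5.91% of gate-negative and 7.76%, 70.7% and 2.40% of B cell barcodes, against 53.5%, 74.6% and 5.63% of myeloid barcodes. After thinning they were 0.095%, 2.28% and 0.0475% of gate-negative and 0.112%, 9.52% and 0% of B cell barcodes. The thinned myeloid counts are of 65 barcodes. Asking for 2 neutrophil markers gave 17 barcodes and for 4 gave 1. At 500 CPM, 54, 52 and 112 genes were 2-fold apart between library pairs.

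Under the gate of 2 UMIs, log2 fold changes reversed for Cxcl13 (-1.81 against gate-negative and -0.93 against B cell barcodes), Clu (-0.28 against B cells) and Mki67 (-2.36 against B cells), and Fscn1 fell to about 0 (-0.0012). With no collagen UMI the fitted values against gate-negative barcodes were negative for Cst3 (-0.61), Irf8 (-0.54), Plac8 (-12.63) and Mki67 (-7.83), and against B cells for Plac8 (-13.92). The sign for Cst3 goes against the CPM of the fitted sums (779 and 1063, against 727 and 696), and that for Irf8 against 1 of them (223 and 106, against 134 and 134). The 2 barcodes of 2-IC replicate 2 left out as fewer than 5 held 711 UMIs of Cst3 and 25 of Irf8 among 21422. Plac8 and Mki67 had 0 UMIs in these sums of 17969 and 9407 UMIs, so that their fitted values are no fold changes. Against B cells the same setting reversed H2-Eb1 (-3.25) and Igfbp7 (-2.91) and brought Mxd1 to about 0 (-0.00042). Thinning reversed H2-Eb1 against B cells (-1.31). Without 2-IC replicate 2, Mki67 reversed in both comparisons, from -1.65 to 3.23 and from -5.03 to 1.72 over the libraries left out. Why the direction turned was not tested. The depth of the 1-IC myeloid sum, 52888 UMIs, limits calls on genes under 56.7 CPM there.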

Other observations

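The 20 barcodes with at least 2 UMIs of Tyrobp and 0 of Lyz2 belong to no group above. Their Fcer1g level of 695 CPM and H2-Aa level of 4178 CPM are values only and were not tested against the 71 myeloid barcodes.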
